A study of Mus musculus with 8 samples.

Results

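The 10 genes described here mark the connective tissue and lining cells of organs, and they were taken by symbol from the count table, 10 of the 19348 genes it lists. Pdgfra, Pdgfrb, Dpp4, Pi16, Dcn and Lum are expressed by fibroblasts, preadipocytes and related stromal cells (6 genes), and Wt1, Upk3b, Msln and Lrrn4 by mesothelium (4 genes). They were measured by RNA-seq of liver and of epididymal white adipose tissue (eWAT), the fat pad along the epididymis, in male C57BL/6 mice aged 12 weeks that had been fasted for 16 h. Each tissue had 2 libraries labelled Crtc1-/- and 2 labelled Crtc1+/+, from littermates on normal chow, and all 8 libraries were used. The Crtc1-/- animals carried a whole-body deletion made with CRISPR/Cas9 and guide RNAs directed at exons 2 and 4 of Crtc1, a coactivator of the transcription factor CREB. The level of Crtc1 itself was 32.6 and 33.7 CPM (counts-per-million) in eWAT with the Crtc1+/+ label and 58.5 and 33.6 CPM in eWAT with the Crtc1-/- label. In liver it was 11.7 and 9.86 CPM against 22.1 and 18.0 CPM. So Crtc1 was no lower where the label was Crtc1-/- (adjusted p = 0.396 in eWAT and 0.184 in liver). The gene total also counts reads from the exons outside the deletion, so it does not test the deletion, and genotypes are given here as labelled.

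White adipose tissue holds a stroma of fibroblast-like progenitors, from which new fat cells arise. Receptors for platelet-derived growth factor (PDGF) mark these cells: PDGFRα is typical of fibroblasts and preadipocytes, and PDGFRβ is typical of pericytes and other mural cells as well as of part of the preadipocytes. DPP4 and PI16 mark progenitors that lie in the fibrous septa of fat pads, while decorin (Dcn) and lumican (Lum) are proteoglycans that fibroblasts secrete around collagen fibrils. The mesothelium is the flat cell layer that covers visceral fat and liver, and it expresses the transcription factor Wt1, the membrane proteins uroplakin 3b (Upk3b) and mesothelin (Msln), and the leucine-rich repeat protein Lrrn4. In liver, Pdgfrb and Dcn are mainly products of hepatic stellate cells and portal fibroblasts, and Dpp4 is also made by epithelia, hepatocytes among them.

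In GRCm38 with the GENCODE annotation, Pdgfra covers 75152292 to 75198215 on the plus strand of chromosome 5, and Upk3b 136038496 to 136046487 on the plus strand of the same chromosome. Dpp4 covers 62330073 to 62412231 of chromosome 2, on its minus strand. A RefSeq promoter table of GRCm38.p6 held 5 of the 10 genes, and 3 of them are shown as the 250 bases before the RefSeq start. Pdgfra was lower in eWAT under the Crtc1-/- label. Dpp4 also had lower levels there and Upk3b, a mesothelial gene, higher ones, but neither difference reached an adjusted p under 0.05. The Pdgfra window ends at 75152250, before the GENCODE start at 75152292, so distances below are counted from the RefSeq start. Capitals mark matches on either strand to the half-site of the cAMP response element at which CREB binds (TGACG), the CCAAT box (CCAAT) or the TATA box (TATAAA). The full element (TGACGTCA), which contains the half-site, was also searched for.
Pdgfra, chr5:75152001-75152250, plus strand: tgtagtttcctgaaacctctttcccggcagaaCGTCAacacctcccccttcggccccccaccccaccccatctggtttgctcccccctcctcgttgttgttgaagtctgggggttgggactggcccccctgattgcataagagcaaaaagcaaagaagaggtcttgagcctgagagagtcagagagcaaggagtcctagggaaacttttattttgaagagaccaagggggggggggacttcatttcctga
Dpp4, chr2:62412232-62412481, minus strand: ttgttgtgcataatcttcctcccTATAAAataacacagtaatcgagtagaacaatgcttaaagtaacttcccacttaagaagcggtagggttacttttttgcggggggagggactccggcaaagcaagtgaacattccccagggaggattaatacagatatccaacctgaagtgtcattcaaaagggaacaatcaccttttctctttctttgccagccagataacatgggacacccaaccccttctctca
Upk3b, chr5:136038246-136038495, plus strand: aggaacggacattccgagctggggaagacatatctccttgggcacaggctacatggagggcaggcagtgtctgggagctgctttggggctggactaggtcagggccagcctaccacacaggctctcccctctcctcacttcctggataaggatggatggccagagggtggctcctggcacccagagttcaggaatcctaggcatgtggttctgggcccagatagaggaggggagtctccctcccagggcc
The Pdgfra window held 1 half-site, whose first base lies 218 bases before the start and which reads as CGTCA on the strand shown, and the Dpp4 window held 1 TATAAA at 227 bases. The Upk3b window held no match, and the full element matched none of the 3. Among 32851 promoter windows of the same length, 1.546% held the full element, 17.77% the half-site, 33.85% the CCAAT letters and 12.37% TATAAA. Pdgfra also has an earlier RefSeq start, so its window can lie within other Pdgfra transcripts, although no base of the 3 windows overlapped a GENCODE exon. The GC content was 54.4% for Pdgfra, 43.6% for Dpp4 and 60.8% for Upk3b. A match of these letters is a description of the window and not evidence of binding.

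The 8 libraries each held about 16560100 to 19721500 counts, so 3 counts correspond to 0.152 to 0.181 CPM before scaling. The CPM printed for single libraries were scaled by edgeR's TMM factors within a tissue, and they are compared here only within that tissue. The correlations over all 8 libraries given further below rest on another scaling. The eWAT libraries differed in transcripts of fat cells and of other tissues. Epididymis genes (17 genes, led by Gpx5, Lcn8 and Cst11) made up 7.79% and 9.11% of counts in eWAT with the Crtc1+/+ label but 0.00245% and 0.00123% in eWAT with the Crtc1-/- label, where 7 and 4 of the 17 were at 0. Adipocyte genes (12 genes, led by Fabp4, Cfd and Pnpla2) made up 0.258% and 0.397% against 4.66% and 2.23%. Hepatocyte genes (12 genes, led by Alb, Apoa1 and Ahsg) reached 11.03% in eWAT Crtc1-/- replicate 2, where the other 3 eWAT libraries held 0.188% to 0.847%. These shares moved with the labels or with 1 library, and their part in the results on the 10 genes was not tested. In bulk tissue, fewer cells of a type and less RNA per cell cannot be told apart.

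In eWAT, the PDGF receptors Pdgfra and Pdgfrb changed in opposite directions between the genotypes, and no other gene of the 10 passed the test. Pdgfra, the receptor that marks fibroblasts and preadipocytes, was at 68.2 and 125 CPM under the Crtc1+/+ label and at 19.6 and 9.79 CPM under the Crtc1-/- label. The groups did not overlap, and Pdgfra was 6.54-fold lower under the Crtc1-/- label, with means of 14.7 ± 6.95 against 96.3 ± 39.9 CPM (SD, n = 2 each; log2 fold change -2.71, SE 0.52, adjusted p = 0.0386, edgeR's quasi-likelihood test). Pdgfrb, the receptor shared by mural cells and adipose progenitors, was at 28.3 and 25.6 CPM under the Crtc1+/+ label and at 169 and 103 CPM under the Crtc1-/- label. Here too the groups stood apart, with the difference in the other direction: Pdgfrb was 5.06-fold higher under the Crtc1-/- label, with means of 136 ± 46.8 against 26.9 ± 1.91 CPM (SD, n = 2 each; log2 fold change 2.34, SE 0.36, adjusted p = 0.0263). Of all 15391 genes tested, 12.2% passed the same threshold, 6.65% as higher and 5.54% as lower, so 2 of 10 is near the background. At an unadjusted p under 0.05, 4 of the 10 genes passed, where 33.3% of all genes did.

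Without either of the Crtc1+/+ libraries, no gene of the whole table was called, and the adjusted p was 0.147 and 0.276 for Pdgfra and 0.159 and 0.270 for Pdgfrb. Without Crtc1-/- replicate 2, Pdgfra lost its call (adjusted p = 0.054) while its log2 fold change was -2.35, and Pdgfrb was called (2.62, adjusted p = 0.00918). In that fit 1 Crtc1-/- library remained, and the spread came only from the Crtc1+/+ pair, with the lone library assumed to vary alike. Over all 14 alternatives, the log2 fold change ran from -3.29 to -2.16 for Pdgfra and from 1.95 to 2.62 for Pdgfrb.

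**Figure D1:**
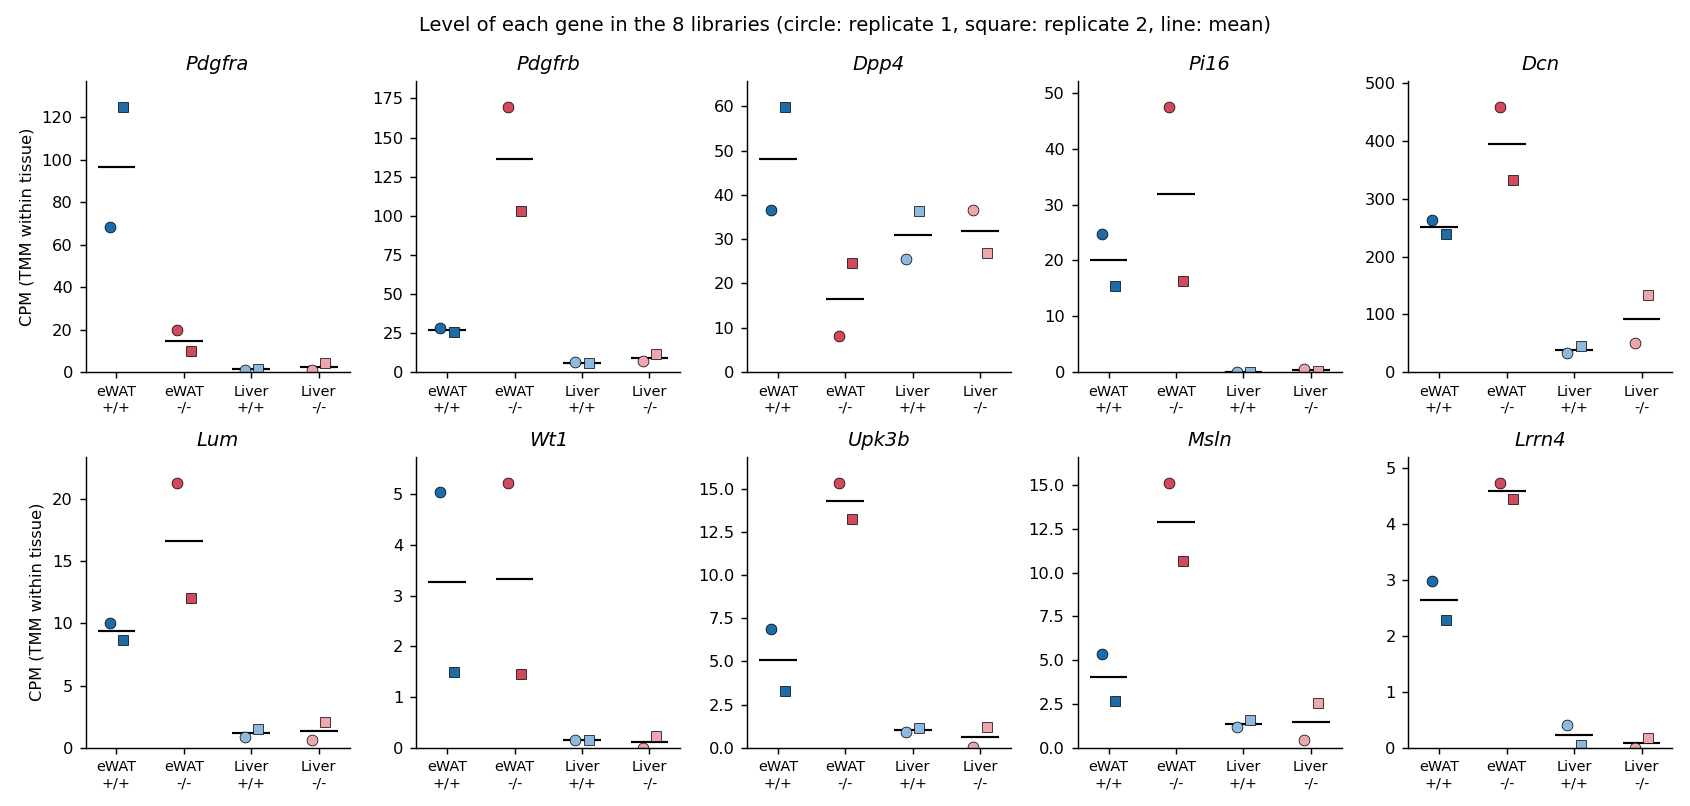
CPM (y axis, linear from 0, scaled by TMM within each tissue) of the 10 genes in the 4 groups, with a circle for replicate 1, a square for replicate 2 and a line for their mean. In eWAT, Pdgfra stands at 68.2 and 125 CPM under the Crtc1+/+ label and at 19.6 and 9.79 CPM under the Crtc1-/- label, and Pdgfrb has the opposite order.

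The ratio of the 2 receptors within a library does not depend on the scaling between libraries. In eWAT with the Crtc1+/+ label, the counts of Pdgfra were 2.41 and 4.87 times those of Pdgfrb. In eWAT with the Crtc1-/- label, the ratio was 0.116 and 0.0949, and in liver it lay between 0.136 and 0.371. The more abundant receptor transcript of eWAT was therefore Pdgfra in both libraries labelled Crtc1+/+ and Pdgfrb in both labelled Crtc1-/-, also per length of transcript (FPKM ratios of 1.979 and 3.998 against 0.0953 and 0.0777). An exact permutation test of 2 against 2 libraries cannot give a p under 0.333, so these ratios are given without a test.

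**Figure D2:**
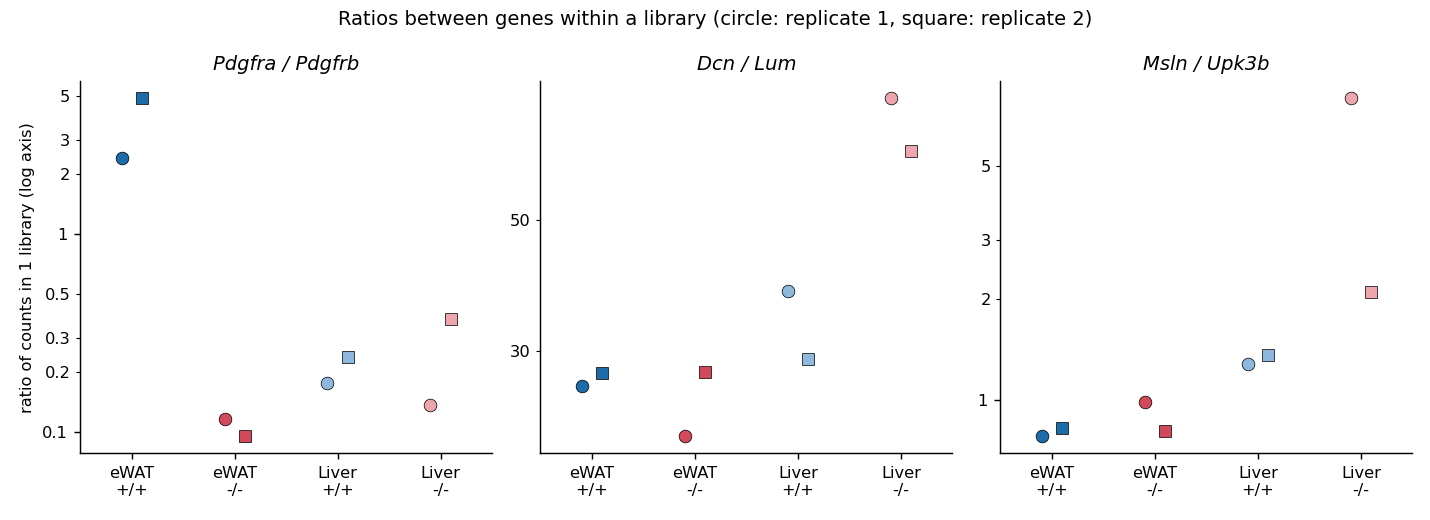
Ratio of the counts of 2 genes within each library (y axis, logarithmic) for Pdgfra over Pdgfrb, Dcn over Lum and Msln over Upk3b in the 4 groups, with a circle for replicate 1 and a square for replicate 2. The first ratio is above 1 in the eWAT libraries labelled Crtc1+/+ (2.41 and 4.87) and below 1 in the other 6 libraries, whereas Dcn over Lum in eWAT lies between 21.5 and 27.7 in both genotypes.

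Neither septal progenitor gene was called. Dpp4, a membrane-bound dipeptidyl peptidase, was at 36.6 and 59.7 CPM in eWAT with the Crtc1+/+ label and at 8.13 and 24.6 CPM in eWAT with the Crtc1-/- label. The groups stood apart, with the lower pair under the Crtc1-/- label, but the difference did not pass the test (log2 fold change -1.56, SE 0.62, adjusted p = 0.159). The higher of the Crtc1-/- values came from replicate 2, the library with 11.03% hepatocyte counts. Without that library, Dpp4 was called, with a log2 fold change of -2.61 and an adjusted p of 0.0437, in a fit where 1 Crtc1-/- library remained and only the Crtc1+/+ pair gave the spread. Epithelial genes, which are expressed in cells that also make Dpp4 (7 genes, led by Krt18, Krt8 and Cldn3), made up 0.269% and 0.241% of counts in eWAT with the Crtc1+/+ label against 0.0247% and 0.0460% in eWAT with the Crtc1-/- label, and their part in the Dpp4 difference was not tested. Pi16, a secreted peptidase inhibitor of the same progenitors, was at 24.7 and 15.4 CPM in eWAT with the Crtc1+/+ label and at 47.4 and 16.2 CPM in eWAT with the Crtc1-/- label. Its groups overlapped (log2 fold change 0.67, SE 0.61, adjusted p = 0.464), and its log2 fold change turned to -0.29 without Crtc1-/- replicate 1. There were 1.48 and 3.89 counts of Dpp4 for each count of Pi16 under the Crtc1+/+ label, and 0.171 and 1.52 under the Crtc1-/- label, so this ratio overlapped between the groups.

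Neither fibroblast proteoglycan was called. Dcn, which binds collagen and growth factors, had the highest counts of the 10 genes, at 264 and 239 CPM in eWAT with the Crtc1+/+ label and at 458 and 333 CPM in eWAT with the Crtc1-/- label. Lum, a related proteoglycan, was at 10.1 and 8.66 CPM against 21.3 and 12.0 CPM. In both genes the libraries labelled Crtc1-/- lay above the others, and neither difference passed the test: the log2 fold change was 0.65 (SE 0.34, adjusted p = 0.235) for Dcn and 0.83 (SE 0.44, adjusted p = 0.245) for Lum. The counts of Dcn were 26.2 and 27.6 times those of Lum under the Crtc1+/+ label, and 21.5 and 27.7 times under the Crtc1-/- label. In sum over the 6 stromal genes there were 489 and 517 CPM before scaling in eWAT with the Crtc1+/+ label, and 712 and 408 in eWAT with the Crtc1-/- label. Dcn alone supplied 61.1% and 50.5% of that sum in the former and 63.3% and 66.8% in the latter.

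The mesothelial genes had 21 to 279 counts per eWAT library, and none of the 4 passed the test. Msln, a surface protein of mesothelium, was at 5.35 and 2.70 CPM under the Crtc1+/+ label and at 15.1 and 10.7 CPM under the Crtc1-/- label (log2 fold change 1.68, SE 0.54, adjusted p = 0.108). Upk3b was at 6.89 and 3.27 CPM against 15.3 and 13.3 CPM (log2 fold change 1.49, SE 0.52, adjusted p = 0.125). Lrrn4 was at 2.99 and 2.28 CPM against 4.73 and 4.44 CPM (log2 fold change 0.80, SE 0.56, adjusted p = 0.352). In these 3 genes both libraries labelled Crtc1-/- lay above both labelled Crtc1+/+. Wt1, a transcription factor of mesothelium and of visceral fat progenitors, had a different pattern: it was at 5.06 and 1.5 CPM in eWAT with the Crtc1+/+ label and at 5.22 and 1.46 CPM in eWAT with the Crtc1-/- label. Its high and low values fell in replicate 1 and replicate 2 of each genotype, and its log2 fold change was 0.03 (SE 0.95, adjusted p = 0.985). The counts of Msln stayed close to those of Upk3b, at 0.776 and 0.825 times under the Crtc1+/+ label and 0.986 and 0.806 times under the Crtc1-/- label. The counts of Wt1 were 0.734 and 0.460 times those of Upk3b in the former and 0.341 and 0.110 times in the latter.

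Across the 10 genes, 8 log2 fold changes were positive and 2 negative, with a median of 0.73, where the median of all genes tested was -0.05. The groups did not overlap for 8 of the 10 genes, all but Pi16 and Wt1, where 66.6% of all genes had groups that did not overlap. With DESeq2, Msln (adjusted p = 0.0262) and Upk3b (adjusted p = 0.0465) were called besides the PDGF receptors, 4 of 10 genes, where DESeq2 called 30% of all genes. With limma, 3 genes were called: the PDGF receptors and Msln on log2(FPKM + 1) (1.53, adjusted p = 0.0470), or the receptors and Lrrn4 on log2(FPKM + 0.1) (1.63, adjusted p = 0.0498). Of all 15391 genes, limma called 2144 and 2048. The scaling between libraries moved the median of all genes to -0.25 with upper-quartile factors and -0.35 with library sizes alone, and only Wt1 changed sign with it.

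**Figure D3:**
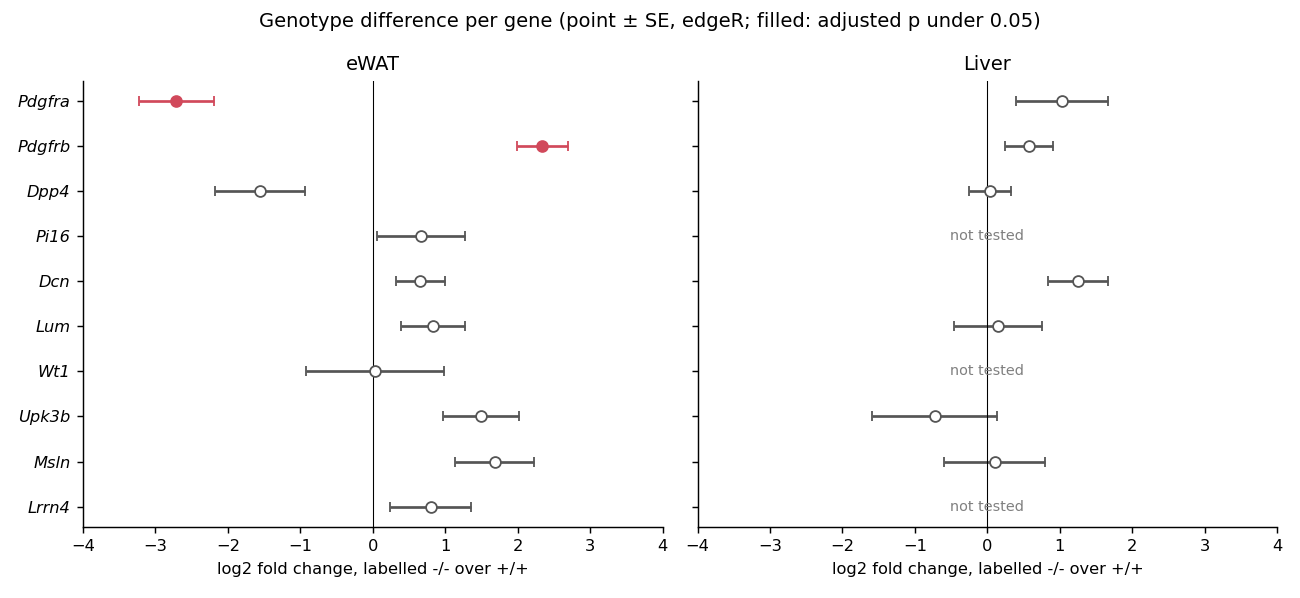
Log2 fold change of the libraries labelled Crtc1-/- over those labelled Crtc1+/+ (x axis) for the 10 genes in eWAT and in liver, from edgeR's quasi-likelihood test, with points for the estimate, bars for its SE and filled points where the adjusted p was under 0.05. The filled points are Pdgfra at -2.71 and Pdgfrb at 2.34 in eWAT, and Pi16, Wt1 and Lrrn4 were too low in liver to be tested.

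Per length of transcript, the order of Pdgfra, Dpp4 and Pdgfrb among the 10 genes in eWAT differed between the labels. In eWAT with the Crtc1+/+ label, Dcn led with 174 and 153 FPKM (a fragment count per kilobase of transcript at equal depth), followed by Pdgfra with 12.1 and 21.3. Dpp4 (8.41 and 13.1 FPKM) and Pi16 (13.4 and 8.05 FPKM) overlapped each other and Pdgfra, so these 3 levels could not be ranked. Pdgfrb (6.09 and 5.32 FPKM) and Lum (5.92 and 4.93 FPKM) also overlapped. Below them, Upk3b (4.13 and 1.90 FPKM), Msln (3.08 and 1.51), Wt1 (1.95 and 0.56) and Lrrn4 (0.90 and 0.49) each overlapped with the next. In eWAT with the Crtc1-/- label, Dcn again led with 264 and 159 FPKM, and Pdgfrb was next with 31.6 and 16.0, overlapping only Pi16 (22.4 and 6.33). Lum (10.8 and 5.05 FPKM), Upk3b (7.97 and 5.69) and Msln (7.53 and 4.41) overlapped one another. Dpp4 (1.57 and 4.02 FPKM) and Pdgfra (3.01 and 1.24) lay below those 3. Wt1 (1.74 and 0.40) overlapped Dpp4, Pdgfra and Lrrn4 (1.22 and 0.93), and Lrrn4 lay below Dpp4 and Pdgfra. Pdgfra thus lay below Upk3b and Msln under the Crtc1-/- label, and above both under the Crtc1+/+ label.

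**Figure D4:**
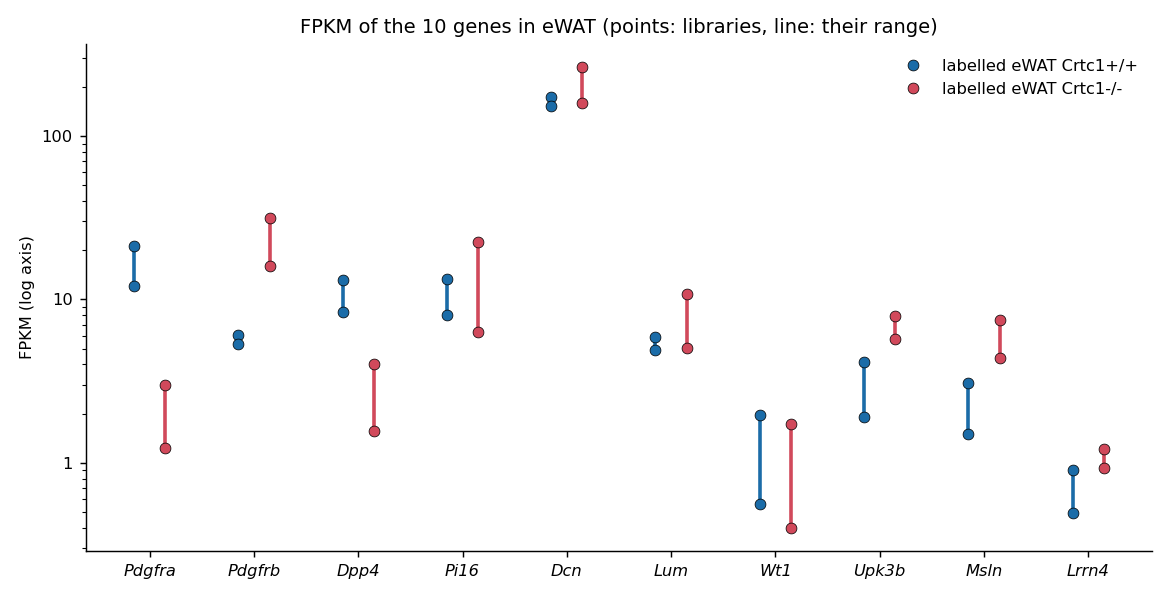
FPKM (y axis, logarithmic) of the 10 genes in the 4 eWAT libraries, with points for libraries and a line for the range of the 2 libraries of a genotype. Dcn is highest in both genotypes, from 153 to 264 FPKM, and the ranges of the 2 genotypes are furthest apart for Pdgfra and Pdgfrb.

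Genes of related function were read in the same eWAT fit. For the lists, rose and fell mean higher or lower at an adjusted p under 0.05, as 6.65% and 5.54% of all genes were. Of the other members of the PDGF family and the related receptors (7 genes tested, led by Csf1r, Pdgfb and Pdgfa), 2 rose, none fell, and the median was -0.57. Pdgfb, a ligand that endothelium releases and that binds PDGFRβ with high affinity, was at 29.1 and 28.8 CPM in eWAT with the Crtc1+/+ label and at 288 and 206 CPM in eWAT with the Crtc1-/- label (log2 fold change 3.09, adjusted p = 0.0170). Csf1r, the related receptor of macrophages, rose by a log2 fold change of 1.98 (adjusted p = 0.0454), a call that was lost with upper-quartile factors. Pdgfa, the main ligand of PDGFRα, had a log2 fold change of -0.76 (adjusted p = 0.304). Among the other small leucine-rich proteoglycans (9 tested, led by Bgn, Prelp and Fmod), 2 rose and none fell, with a median of 1.03. Prelp, which anchors basement membranes to connective tissue, was at 75.2 and 46.7 CPM against 1215 and 1039 CPM (log2 fold change 4.21, adjusted p = 0.0173), a difference larger than that of Dcn or Lum. Podn also rose (log2 fold change 2.52, adjusted p = 0.0204), whereas Bgn (1.25, adjusted p = 0.137) and Fmod (-1.99, adjusted p = 0.137) did not pass.

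Among other genes of septal progenitors (13 tested, led by Ly6a, Cd34 and Fbn1), none rose and 1 fell, with a median of 0.30. Their log2 fold changes were positive for 10 genes and negative for 3. With upper-quartile or library-size scaling, 2 fell, 7 were positive and 6 negative, with medians of 0.09 and 0.02. The gene that fell with TMM scaling was Dact2, an inhibitor of developmental signalling, at 41.5 and 56.6 CPM against 8.02 and 12.8 CPM (log2 fold change -2.24, adjusted p = 0.0342). Sema3c (-2.68, adjusted p = 0.0523) and Bmp7 (-3.09, adjusted p = 0.0703) were the other negative genes and did not pass. Ly6a, which encodes the progenitor marker Sca-1, had a log2 fold change of 2.08 (adjusted p = 0.0695), Fbn1 of 1.36 (adjusted p = 0.0669) and Cd34 of 0.19 (adjusted p = 0.787), the last with a sign that turned under the other scalings. Among other preadipocyte and fibroblast genes (15 tested, led by Mgp, Icam1 and Gdf10), 2 rose and none fell, with a median of 1.23. Zfp423, a transcription factor of preadipocytes, was at 8.72 and 8.09 CPM against 58.5 and 29.2 CPM (log2 fold change 2.38, adjusted p = 0.0387), a call lost with library-size scaling. Ggt5, a peptidase of leukotriene metabolism, was at 8.62 and 5.76 CPM against 49.2 and 41.4 CPM (log2 fold change 2.65, adjusted p = 0.0239). Mgp, Icam1 and Gdf10 had log2 fold changes of 0.40, 1.79 and 1.98 and did not pass.

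Other mesothelial genes had mostly the opposite sign to Msln and Upk3b. Of 8 tested (led by Krt19, Pdpn and Krt7), none rose and 2 fell, with a median of -1.84. Upk1b, a uroplakin of mesothelium and urothelium, was at 37.2 and 54.0 CPM in eWAT with the Crtc1+/+ label and at 7.75 and 4.65 CPM in eWAT with the Crtc1-/- label (log2 fold change -2.88, adjusted p = 0.0266). Krt7, a keratin that simple epithelia also express, was at 64.6 and 59.6 CPM against 7.20 and 3.26 CPM (log2 fold change -3.56, adjusted p = 0.0230). Krt19, another keratin of simple epithelia, and Pdpn, a membrane glycoprotein, had log2 fold changes of -2.90 and -2.22 (adjusted p = 0.120 and 0.139). The share of epithelial genes was also lower under the Crtc1-/- label (0.0247% and 0.0460% of counts against 0.269% and 0.241%). The part of epithelial or epididymis transcripts in the values of this list was not tested. In the family of Dpp4 (5 tested, led by Dpp9, Dpp8 and Dpp7), 1 rose and 1 fell, with a median of 0.17. Dpp7 rose by a log2 fold change of 2.50 (adjusted p = 0.0326), and Dpp6, an ion channel partner without peptidase activity, was at 22.7 and 10.4 CPM against 0.385 and 0 CPM (adjusted p = 0.0420). Dpp8 (-0.51, adjusted p = 0.452) and Dpp9 (0.17, adjusted p = 0.679, with a sign that turned under the other scalings) did not pass.

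**Figure D5:**
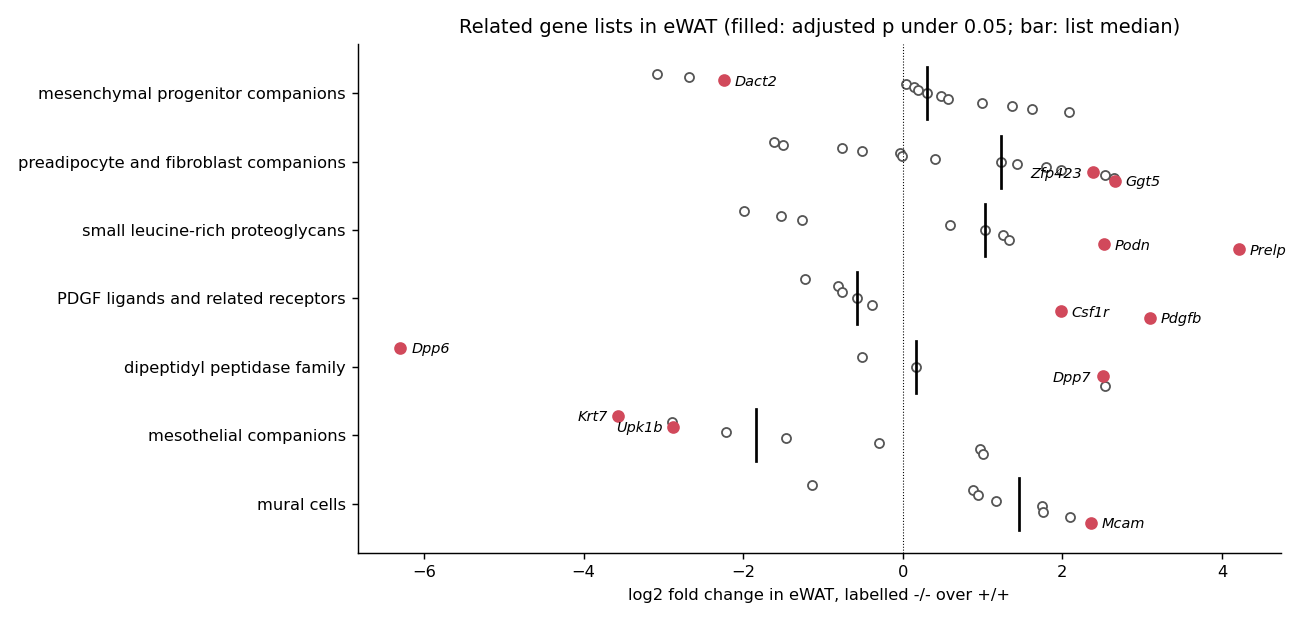
Log2 fold change in eWAT of the libraries labelled Crtc1-/- over those labelled Crtc1+/+ (x axis) for the tested genes of 7 related lists (rows), with filled, named points for an adjusted p under 0.05 by edgeR and a bar at the list median. The medians run from -1.84 for the mesothelial list to 1.46 for the mural cell list, and called genes are found on both sides of 0.

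Markers of the cells that share these genes were also read in eWAT. Of 8 mural cell genes, led by Mcam, Des and Notch3, 1 rose, Mcam, an adhesion molecule of pericytes and endothelium, from 56.1 and 50.7 CPM to 358 and 188 CPM (adjusted p = 0.0339, lost with library-size scaling). The median of the list was 1.46, with 7 log2 fold changes positive and 1 negative, that of Des (-1.14). The share of the list was 0.0480% and 0.0289% of counts against 0.0797% and 0.0363%, so the groups overlapped in this sum. Under the Crtc1+/+ label, Des gave 5491 of the 8782 and 1803 of the 5088 list counts. Under the Crtc1-/- label it gave 1719 of 14740 and 978 of 6394. All 8 endothelial genes rose, led by Cdh5, Pecam1 and Cldn5, and their share was 0.0322% and 0.0324% against 0.435% and 0.252%. Of the 12 adipocyte genes 10 rose, of the 17 epididymis genes 16 fell, and of the 12 hepatocyte genes 1 rose (Cyp2e1). All 12 hepatocyte genes had positive log2 fold changes (median 4.17). Of 7 macrophage genes, led by C1qa, C1qc and C1qb, 2 rose (Adgre1 and Csf1r), both lost with upper-quartile factors. All 7 macrophage genes had positive log2 fold changes (median 2.13). Of 7 epithelial genes 2 fell (Cdh1 and Cldn4), of 8 sperm genes, led by Prm2, Odf2 and Prm1, 3 fell (Odf1, Odf2 and Smcp), and of 6 smooth muscle genes, led by Actg2, Acta2 and Myh11, 2 fell (Myh11 and Actg2). Of 8 stellate cell genes, led by Ecm1, Des and Pth1r, 1 rose (Pth1r), with 5 positive and 3 negative. Of 7 lymphocyte genes, led by Cd79a, Cd79b and Cd3g, none was called, and all 7 were negative (median -1.06). How far the levels of the 10 genes follow these lists was not tested.

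In liver, none of the 7 genes that edgeR tested was called between the genotypes, and 1, Dcn, had an unadjusted p under 0.05. Over all 11707 genes, edgeR called 0.0854% and DESeq2 2.66%, and 17.3% had an unadjusted p under 0.05. DESeq2 gave an adjusted p for 4 of the genes, Pdgfra, Pdgfrb, Dpp4 and Dcn, and called 0 of them (0.0513 for Dcn and 0.495 to 0.974 for the others). Dcn was at 33.2 and 44.3 CPM in liver with the Crtc1+/+ label and at 50.6 and 134 CPM in liver with the Crtc1-/- label (log2 fold change 1.25, SE 0.42, adjusted p = 0.207). Pdgfra was at 1.18 and 1.31 CPM against 0.943 and 4.20 CPM (log2 fold change 1.03, SE 0.64, adjusted p = 0.418), and Pdgfrb at 6.68 and 5.51 CPM against 6.92 and 11.3 CPM (log2 fold change 0.58, SE 0.33, adjusted p = 0.385). In all 3 genes the highest value belonged to Crtc1-/- replicate 2. Stellate cell genes, 9 genes in the list, made up 0.0380% of counts in that library and 0.0151% to 0.0225% in the other 3 livers, and their part in these values was not tested. Ecm1 alone gave 4657 of the 6287 counts of the list in that library and 2741 of 4282 in Crtc1-/- replicate 1. Des (22.3 against 22.7 CPM, or 382 against 433 counts) and Pth1r (5.37 against 8.49 CPM, or 92 against 162 counts) were not higher in Crtc1-/- replicate 2 than in replicate 1. Des and Pth1r do not stand for the rest of the list. All 8 of its genes tested in liver had positive log2 fold changes, with a median of 0.73. Without Crtc1-/- replicate 1, Dcn (log2 fold change 1.79, adjusted p = 2.19e-06) and Pdgfra (1.76, adjusted p = 0.0133) were called. Without Crtc1-/- replicate 2, neither was called, at 0.38 for Dcn (adjusted p = 0.597) and -0.41 for Pdgfra (adjusted p = 0.803). In both of these fits 1 Crtc1-/- liver remained and the spread came only from the Crtc1+/+ pair, so neither is a test with replicates in both groups.

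Dpp4 had the smallest log2 fold change of the 7 genes in liver, at 25.6 and 36.5 CPM under the Crtc1+/+ label and 36.6 and 27.0 CPM under the Crtc1-/- label (log2 fold change 0.04, SE 0.28, adjusted p = 0.962). Lum was at 0.873 and 1.52 CPM against 0.629 and 2.04 CPM. The counts of Dcn were 38 and 29.1 times those of Lum in liver with the Crtc1+/+ label and 80.5 and 65.4 times in liver with the Crtc1-/- label, groups that did not overlap, with 12 to 35 counts of Lum per library. Of the mesothelial genes, Upk3b had 18 and 22 counts in liver with the Crtc1+/+ label and 1 and 21 counts in liver with the Crtc1-/- label, and Msln had 23 and 30 against 8 and 44. Both were therefore scarce in Crtc1-/- replicate 1 and not in the other 3 livers. Pi16, Wt1 and Lrrn4 had from 0 to 10 counts per liver library and did not pass the expression filter. Of the 7 tested genes, the groups did not overlap for 2, Pdgfrb and Dcn, where 52.1% of all genes had groups that did not overlap. The median log2 fold change of the 7 genes was 0.15 and that of all genes 0.00, with 6 positive values and 1 negative, that of Upk3b (-0.73, adjusted p = 0.684).

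Whether the genotype difference itself differed between eWAT and liver was tested in a fit of all 8 libraries. None of the 10 genes passed with edgeR, where 6.94% of all genes did, and 2 had an unadjusted p under 0.05, where 26.9% did. These were the PDGF receptors. The difference was lower in eWAT than in liver by 3.84 on the log2 scale for Pdgfra (SE 0.93, adjusted p = 0.0554) and higher by 1.66 for Pdgfrb (SE 0.43, adjusted p = 0.0645). DESeq2 called both (adjusted p = 0.0041 and 0.0376), 2 of the 10 genes, where it called 13.2% of all genes. Over 17 alternatives, the adjusted p ran from 0.0041 to 0.194 for Pdgfra, which was called in 6, and from 0.0224 to 0.213 for Pdgfrb, which was called in 4. Leaving out 1 library brought Pdgfra past the threshold without liver Crtc1-/- replicate 1 (adjusted p = 0.0496) and without eWAT Crtc1-/- replicate 1 (0.0236), and Pdgfrb and Dpp4 without eWAT Crtc1-/- replicate 2 (0.0330 and 0.0240).

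Between the tissues, the same 8 libraries were compared within each genotype, so these contrasts share libraries with the genotype comparisons. The median of all genes was itself 0.61 higher in eWAT than in liver on the log2 scale under the Crtc1+/+ label and 0.20 higher under the Crtc1-/- label, and with library-size scaling it was 2 and 1.33. Differences are therefore also given relative to that median. Under the Crtc1+/+ label, 5 of the 10 genes were higher in eWAT, where 35% of all genes were. Pdgfra was higher in eWAT by 5.05 on the log2 scale (4.44 above the median of all genes, adjusted p = 0.00233). Lum (1.75, or 1.14 above the median), Dcn (1.48, or 0.88 above) and Pdgfrb (0.93, or 0.32 above) were the smaller differences among those called, with adjusted p of 0.0404, 0.0333 and 0.037. All 3 calls were lost without any 1 of the 4 Crtc1+/+ libraries (adjusted p from 0.0836 to 0.193), and that of Pdgfrb also without eWAT Crtc1-/- replicate 2 (0.0637). Pdgfrb lost its call with DESeq2 as well (0.79, adjusted p = 0.131) and with limma (0.03 and 0.05 with pseudocounts of 1 and 0.1, adjusted p = 0.935 and 0.926). Lum lost its call with limma (0.38 and 0.61, adjusted p = 0.385 and 0.365), and Dcn kept it with all 3. Pi16 had 513 and 296 counts in eWAT and 1 and 0 counts in liver, and was higher by 8.18 in the TMM fit (7.57 above the median, adjusted p = 0.00147), a fitted value that depends on the prior count. Its ratio on library totals, the scale on which the median of all genes is 2 higher in eWAT, was 885, with an exact 95% interval for counting error of 158 to 34990.

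Under the Crtc1-/- label, 4 genes were higher in eWAT, where 18.9% of all genes were, and 1 was lower, where 8.89% were. Pdgfrb was higher by 2.59 (2.39 above the median, adjusted p = 0.00201) and Lum by 2.33 (2.13 above, adjusted p = 0.0295). Pi16 had 863 and 234 counts in eWAT against 10 and 3 in liver, and was higher by 5.13 in the TMM fit (4.93 above the median, adjusted p = 0.0041). Lrrn4 had 86 and 64 against 0 and 3, higher by 4.41 (4.21 above the median, adjusted p = 0.037). On library totals, where the median of all genes is 1.33 higher in eWAT, the ratios were 83.1 for Pi16 (exact 95% interval 48.4 to 157) and 49.2 for Lrrn4 (16.5 to 241). Dpp4 was lower in eWAT by 2.20 (2.41 under the median, adjusted p = 0.0317). The call of Dpp4 was lost without any 1 of the 4 liver libraries (adjusted p from 0.0579 to 0.131), and also with library-size scaling (0.0684) and in a fit of only the 4 Crtc1-/- libraries (0.0677). Lum lost its call without liver or eWAT Crtc1-/- replicate 1 (0.105 and 0.0852) and in the fit of 4 libraries (0.0654). Lrrn4 lost its call without either Crtc1-/- liver, either Crtc1+/+ eWAT library or eWAT Crtc1-/- replicate 1 (0.0581 to 0.138), and with limma at a pseudocount of 1 (0.0532). Pdgfra, at 1.21 (adjusted p = 0.186), was not called there, but it was without liver Crtc1-/- replicate 2 (2.62, adjusted p = 0.0485), as were Upk3b (0.0165) and Msln (0.0399). Under the Crtc1+/+ label, Dpp4 did not differ beyond error (-0.59, adjusted p = 0.390), with a sign that turned to 0.81 with library-size scaling. Across the 18 alternatives of each comparison, Pi16 was called in all under both labels, Pdgfra in all under Crtc1+/+ and Pdgfrb in all under Crtc1-/-.

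The mesothelial genes had 0 to 44 counts per liver library. Wt1 had 134 counts in all in eWAT and 6 in liver under the Crtc1+/+ label, and was higher in eWAT by 3.16 in the TMM fit (2.55 above the median, adjusted p = 0.0633). Under the Crtc1-/- label it had 116 and 4 counts, a difference of 3.5 (3.30 above the median, adjusted p = 0.0821). DESeq2 called both (adjusted p = 0.0485 and 0.0402). The ratios on library totals were 24.4 (10.9 to 67.7 by counting error) and 28.6 (10.9 to 107), before the shift of all genes on that scale. Msln had 163 counts in eWAT against 53 in liver under the Crtc1+/+ label, a difference of 0.34 that is -0.27 relative to the median of all genes (adjusted p = 0.724), and limma turned it to -0.60 and -1.17. Under the Crtc1-/- label it had 429 against 52 counts (1.81, or 1.61 above the median, adjusted p = 0.119). Upk3b had 206 against 40 counts under the Crtc1+/+ label (1.08, or 0.47 above the median, adjusted p = 0.347), and limma turned it to -0.22 and -0.45. Under the Crtc1-/- label it had 470 against 22 counts (3.20, or 3.004 above the median, adjusted p = 0.0519), and DESeq2 called it (adjusted p = 0.00896). No direction between the tissues is therefore given for Msln or Upk3b under the Crtc1+/+ label.

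The genes whose levels were most like those of single members were found by Pearson correlation of log2 CPM over the 8 libraries, among 15586 other genes. The 8 points are 4 libraries from each tissue and share their depth and tissue content, so the correlations are given as a description. They do not follow from the CPM scaled within a tissue that are printed above, and their size and sign can depend on the scaling between tissues. Pdgfra was most like Myo5c (r = 0.996), Zfp354c (0.995) and Bicd1 (0.994). Pi16 was most like Nrip2 (r = 0.997), Jag2 (0.993) and Spred3 (0.993), and Dcn like Mapre2 (0.95), Creb3l1 (0.948) and Rab27a (0.947). For Wt1 they were Cyp2s1 (r = 0.984), Igfbp6 (0.983) and Fhl2 (0.982), and for Msln D430019H16Rik (0.956), Timeless (0.955) and Pkd2l2 (0.941). Among the 10 genes themselves, the highest correlations were between Upk3b and Msln (r = 0.937) and between Lum and Wt1 (0.926), and the correlation of Pdgfra with Pdgfrb was 0.323. On the scale used for these correlations, Dpp4 correlated negatively with each of the other 9, from -0.311 with Pdgfra to -0.930 with Pdgfrb. The sign for Pdgfra does not hold on the CPM scaled within a tissue.

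GENCODE places Pdgfrb on the plus strand of chromosome 18 (61045150 to 61085061), Dcn (97479609 to 97518143) and Lum (97565128 to 97572703) beside each other on the plus strand of chromosome 10, and Pi16 (29317680 to 29330593, plus strand) and Msln (25748613 to 25754378, minus strand) on chromosome 17. Wt1 (105126529 to 105173616, plus strand) and Lrrn4 (132868305 to 132880891, minus strand) lie on chromosome 2, as Dpp4 does. Exons of genes on the opposite strand overlapped 622 of the 10024 exonic bases of Pdgfra, 232 of 6319 of Dpp4 and 222 of 6364 of Pi16. The sources do not state whether counting used strand, so reads in those bases cannot be assigned to one strand. Pdgfra also contains the microRNA gene Mir7025 on its own strand, over 30 exonic bases. No exon of another GENCODE gene overlapped those of the other 7 genes.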

How the data were processed

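Pieces of liver and eWAT were extracted with Trizol and sequenced at BGI, and the study describes 2 independent biological replicates per group. The authors deposited estimated counts and FPKM per gene, and 5.44% to 9.98% of the count values above 0 were not whole. The tool that made them is not given in the sources used here. The submitters' processing notes list HISAT, Bowtie2 and GRCm38.p6 without their roles. Counts were rounded, genes were filtered with filterByExpr (minimum count 10), and each tissue was scaled by TMM and tested with edgeR 4.0.16 in R 4.3.3 (quasi-likelihood test, Benjamini-Hochberg adjustment over all genes, called under 0.05). Tissue contrasts and the interaction came from 1 fit of all 8 libraries. The alternatives used DESeq2 1.42.0, limma 3.58.1 on quantile-normalized log2 of the deposited FPKM plus 1 or 0.1, other scalings, other filters (none, or a mean count of at least 50), the list genes of epididymis, hepatocytes and sperm left out, and each library left out. Figures were drawn in Python 3.11.15 with matplotlib 3.10.9. The test scripts were tested on simulated data.

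The members and lists were chosen with earlier results of these data known. The text names the 10 members, the 3 most abundant genes of each list, every list gene called in eWAT where at most 5 were, and the 3 genes most correlated with each of 5 members. It also names Muc16, Nkain4, Sema3c and Bmp7, list genes that were not called. The p-values measure the spread between these libraries, with 2 per group. Where 1 library was left out, its group kept 1 library, which was assumed to vary like the remaining replicate pairs. Counting intervals and the floor of 3 counts cover counting error only, since reads without molecular identifiers are not independent molecules. The paper describes a random choice of 2 Crtc1-/- mice and Crtc1+/+ mice, from which liver and eWAT were taken. The sources do not say whether a liver and an eWAT library with the same number came from the same mouse. The 8 libraries of the tissue contrasts and the interaction may therefore not be independent.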

Additional observations from a re-analysis of the deposited data

How the results depend on the processing

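Of the log2 fold changes under the alternatives, 120 of 140 in eWAT, 76 of 91 in liver, 147 of 178 between tissues under each label and 150 of 168 for the interaction kept their direction and their side of the threshold. Where they did not, the cause was not tested. Between tissues, library-size scaling raised the number called among all 15587 genes from 8552 to 11826 within Crtc1+/+. Within Crtc1-/- that number rose from 4330 to 7127. The rise in members called under that scaling, given below, is therefore not particular to the members. The number of genes called in eWAT (2) was 4 with DESeq2 and ran from 0 to 2 with 1 library left out, and in liver (0) it ran from 0 to 2. Between tissues within Crtc1+/+ (5) it was 8 with library-size scaling, 3 with limma on log2(FPKM + 1), 3 on log2(FPKM + 0.1), and 2 to 5 with 1 library left out. Within Crtc1-/- (5) it was 9 with library-size scaling, 3 with only the 4 libraries of that genotype, and 2 to 6 with 1 left out. For the interaction (0) it was 2 with DESeq2, 1 with no expression filter, 1 with a mean count of at least 50, 2 and 2 with limma, and 0 to 2 with 1 left out.

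The log2 fold change of Wt1 in eWAT turned to -0.0099 with DESeq2, -0.20 with upper-quartile scaling, -0.22 with library sizes, -0.025 with a mean count of at least 50 and -0.12 with all 8 libraries in 1 fit, and ran from -1.15 to 1.11 with 1 library left out. That of Pi16 ran from -0.29 to 1.23. In liver, limma turned Lum to -0.051 and -0.19 and Msln to -0.10 and -0.45, with pseudocounts of 1 and 0.1. With 1 liver library left out, Lum ran from -0.93 to 0.78, Msln from -1.71 to 0.90, Dpp4 from -0.21 to 0.30, Upk3b from -4.16 to 0.25 and Pdgfra from -0.41 to 1.76. Between tissues within Crtc1+/+, Dpp4 turned to 0.81 with library sizes, and limma gave -0.22 and -0.45 for Upk3b, -0.60 and -1.17 for Msln, and -0.22 and -0.69 for Lrrn4. Msln ran from -0.26 to 0.74 with 1 library left out. For the interaction, Pi16 turned to 0.12 with limma on log2(FPKM + 1), and with 1 library left out Lum ran from -0.030 to 1.64, Wt1 from -0.69 to 5.29 and Dcn from -1.21 to 0.17.

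Same-numbered libraries of the 2 genotypes correlated in their deviations at 0.0086 in eWAT and 0.0516 in liver. Same-numbered libraries of the 2 tissues did so at 0.0356 under the Crtc1-/- label and 0.152 under the Crtc1+/+ label. A low correlation over all genes cannot exclude an effect shared by some of them, so pairing is neither shown nor excluded. With the replicate block, 0 of the 10 genes and 0 of all genes were called in eWAT (Pdgfra -2.73, adjusted p = 0.0830, and Pdgfrb 2.30, adjusted p = 0.0544), and Msln in liver turned to -0.21. Other scalings of the list genes in eWAT, chosen after seeing the data, moved the number called by over 1.5 times in 8 of 34 list and scaling pairs. With 2 libraries per group and few counts of Pi16, Wt1 and Lrrn4 in liver, differences of those genes were not detectable there.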
